A study of Mus musculus with 4 samples.

Results

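The genes described here code for proteins of milk, and they were measured in the mammary glands of young mice before pregnancy. They are 10 of the 52636 genes in the deposited table (32271 genes had a UMI in any cell), taken by symbol from a list of milk protein genes: *Csn1s1*, *Csn1s2a*, *Csn2*, *Csn3*, *Lalba*, *Wap*, *Wfdc18*, *Ltf*, *Trf* and *Glycam1*. A UMI (unique molecular identifier) stands for 1 captured mRNA molecule. All 10 symbols had 1 row each in the table.

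The study sorted luminal cells from the mammary glands of female C57BL/6N mice aged 6 weeks and sequenced them with a droplet 3′ method. The control group was ErbB3+/+;MMTV-Cre (WT), and the other group was ErbB3V943R/V943R;MMTV-Cre (mutant). In the mutant both copies of the receptor gene give the normal receptor until Cre acts. They then carry a substitution in the pseudokinase domain. In what share of the cells of each class Cre had acted was not measured here. Cre was present in both groups, driven by the promoter of the mouse mammary tumor virus, which is active in mammary epithelium among other tissues. The cells of 3 mice were pooled for each genotype and each pool was sequenced as 2 libraries, called WT A, WT B, mutant A and mutant B. With 1 pool per genotype the libraries are technical repeats, so no test between genotypes was made, and all intervals given are 95% intervals that cover counting error only.

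The libraries held 6849 to 9627 cells, and between 71 and 111 cell barcodes were shared by a pair of libraries. The deposited classes were used: luminal progenitor (LP, clusters 1 and 2, 3181 WT and 3123 mutant cells), luminal intermediate (LI, cluster 3, 1143 and 952 cells), mature luminal (ML, clusters 4 to 11, 14188 and 9612 cells) and rare (clusters 12 and 13). The summed level of 5 LP markers (*Kit*, *Elf5*, *Aldh1a3*, *Cd14*, *Lcn2*) in WT was 5624 CPM (UMIs of a gene for every 1000000 UMIs) in the LP class, 1999 CPM in the LI class and 86.5 CPM in the ML class. The summed level of 5 ML markers (*Prlr*, *Esr1*, *Pgr*, *Foxa1*, *Cited1*) ran the other way, from 589 CPM in LP through 2914 CPM in LI to 3943 CPM in ML cells of WT. In the mutant the sums were 5539, 1674 and 91.1 CPM for the LP markers and 494, 2548 and 3374 CPM for the ML markers. Summed basal markers in LP cells were 24.3 CPM in WT and 34.6 CPM in the mutant, and summed immune markers 11.4 and 11.1 CPM. Median UMIs per cell in WT and mutant were 2018 and 2067 in LP cells, 5620 and 6850 in LI cells, and 3508 and 4070 in ML cells. A 3′ UMI counts 1 molecule whatever the length of the transcript, so CPM is compared between genes without dividing by length.

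Milk proteins are made in bulk by alveolar cells in late pregnancy and lactation, when prolactin acts through JAK2 and STAT5 on the promoters of casein and whey genes. Alveolar cells derive from the luminal progenitor lineage, which lacks estrogen and progesterone receptors, while mature luminal cells carry these receptors and sense hormones. The casein genes (*Csn1s1*, *Csn1s2a* and *Csn2* for the calcium-binding caseins, *Csn3* for kappa-casein, which keeps the casein micelle in suspension) form 1 cluster on the chromosome. *Lalba* codes for alpha-lactalbumin, the partner that lets galactosyltransferase make lactose. *Wap* codes for whey acidic protein and *Wfdc18* for a secreted protein with the same kind of disulfide core domain, *Ltf* and *Trf* for the iron-binding proteins lactoferrin and transferrin, and *Glycam1* for a mucin-like whey protein.

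In GRCm38 with GENCODE M21 the 4 casein members and *Csn1s2b* lie within 266 kb of chromosome 5. *Csn1s1* lies at chr5:87666208-87682578 and *Csn3* at chr5:87925579-87932665, both on the plus strand, and *Csn2* at chr5:87692624-87699630 on the minus strand. *Wfdc18* lies at chr11:83709015-83711348 on the plus strand, *Lalba* at chr15:98480400-98482721 on the minus strand, *Ltf* at chr9:111019271-111042767 on the plus strand and *Trf* at chr9:103204001-103230444 on the minus strand. *Trf* overlaps *Gm20425* on the same strand, and *Gm20425* had 12367 UMIs in WT LP cells against 15451 for *Trf*. How reads of their shared bases were assigned is not given in the sources used here, so the level of *Trf* is uncertain to that extent. *Csn3* overlaps *1700066N21Rik* on the other strand, which had 0 UMIs in every class.

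The bases just before the start of 5 members are shown because these members span the range from the highest to nearly the lowest level in the gland at this age. The sequences are from RefSeq (GRCm38.p6) on the strand of the gene, and capitals mark TTCNNNGAA, the core of the site bound by STAT5, which reads the same on both strands. The windows are those of *Wfdc18* (chr11:83708754-83709003, plus strand), *Ltf* (chr9:111019042-111019270, plus), *Lalba* (chr15:98482722-98482933, minus), *Csn1s1* (chr5:87665958-87666207, plus) and, for *Csn2*, the 29 bases around the match (chr5:87699500-87699528, minus).
Wfdc18: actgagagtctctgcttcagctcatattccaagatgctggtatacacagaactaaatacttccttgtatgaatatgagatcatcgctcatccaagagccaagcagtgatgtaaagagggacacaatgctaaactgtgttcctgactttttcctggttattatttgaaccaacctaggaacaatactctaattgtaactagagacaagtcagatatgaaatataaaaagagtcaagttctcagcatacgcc
Ltf: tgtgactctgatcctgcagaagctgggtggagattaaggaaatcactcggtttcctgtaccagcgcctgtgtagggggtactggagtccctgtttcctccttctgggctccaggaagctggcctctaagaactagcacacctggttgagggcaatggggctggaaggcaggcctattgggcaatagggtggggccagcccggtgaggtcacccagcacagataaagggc
Lalba: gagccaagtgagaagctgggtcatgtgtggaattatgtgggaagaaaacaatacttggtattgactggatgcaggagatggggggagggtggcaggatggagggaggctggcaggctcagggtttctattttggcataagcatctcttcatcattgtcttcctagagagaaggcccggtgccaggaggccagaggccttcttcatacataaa
Csn1s1: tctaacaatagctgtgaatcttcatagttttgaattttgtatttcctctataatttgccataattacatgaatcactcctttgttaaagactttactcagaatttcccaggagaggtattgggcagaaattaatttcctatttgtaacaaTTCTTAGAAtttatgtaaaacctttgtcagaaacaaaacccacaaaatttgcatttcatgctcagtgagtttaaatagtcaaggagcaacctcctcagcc
Csn2: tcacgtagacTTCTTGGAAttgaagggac
Windows of 300 bases, from 250 before to 50 after the RefSeq start, were in the table for 8 of the 10 members (not *Csn3* or *Trf*), and TTCNNNGAA was in 4 of them. It was in the windows of *Csn1s1* (first base at position -100 from the start), *Csn2* (-93), *Glycam1* (-145) and *Csn1s2a* (20), and not in those of *Wfdc18*, *Ltf*, *Lalba* and *Wap*. Over all genes 2726 of 32851 windows held it (8.30%). For *Csn2* the GENCODE gene starts before the RefSeq start, so the printed bases lie inside the GENCODE gene. For *Csn1s2a* the GENCODE gene starts after the RefSeq start, at chr5:87774567, so the match lies before the GENCODE gene. The windows with a match belonged to members at 17.2 CPM or less in LP cells, and the windows without one to *Wap* at under 1 CPM and to *Lalba*, *Ltf* and *Wfdc18* at 151 CPM or more. A match of letters is a description and shows no binding, and no match says only that these letters are not in the window.

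LP cells already held large amounts of some milk protein transcripts and almost none of others. *Wfdc18* had the second highest UMI count of all genes in LP cells of both genotypes. Its level was 12774 and 12820 CPM in WT A and B and 12743 and 12838 CPM in mutant A and B, and a UMI was seen in 99.6% of LP cells of both genotypes. *Csn3* was the only casein at a high level, with 2115 and 2296 CPM in the WT libraries and 1889 and 1978 CPM in the mutant libraries. *Trf* stood at 1736 and 1883 CPM in WT and 1808 and 1870 CPM in mutant LP cells, and *Ltf* at 1401 and 1325 CPM in WT and 1111 and 1072 CPM in the mutant. *Lalba* followed at a lower level, 194 and 265 CPM in WT and 142 and 159 CPM in the mutant. The order *Wfdc18*, *Csn3*, *Trf*, *Ltf*, *Lalba* was the same in all 4 libraries, but *Csn3* and *Trf* were close in the mutant (1937 and 1842 CPM), nearer to each other than the WT libraries of *Csn3* were. Together the 10 members made up 1.84% of all UMIs of WT LP cells and 1.78% of those of mutant LP cells, and *Wfdc18* alone gave 69.4% and 71.7% of the members' UMIs.

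The other 5 members were scarce. *Csn1s1*, alpha-S1-casein, had 114 UMIs in WT and 149 UMIs in mutant LP cells, or 13.4 and 17.2 CPM. *Csn1s2a* had 56 and 44 UMIs (6.57 and 5.07 CPM). *Csn2*, beta-casein, had 41 UMIs in WT and 32 in mutant LP cells, but 0 of them in WT B, where a count of 0 allows up to 0.823 CPM. *Wap* had 7 and 6 UMIs in LP cells and 15 in all cells of the study. *Glycam1* had no UMI in LP cells, which allows up to 0.433 CPM in WT and 0.425 CPM in the mutant, and 2 UMIs in mutant ML cells were all it had. The intervals of *Csn1s2a* (4.96 to 8.54 CPM) and *Csn2* (3.45 to 6.53 CPM) in WT overlapped, so these neighbors in the order were not separated.

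**Figure D1:**
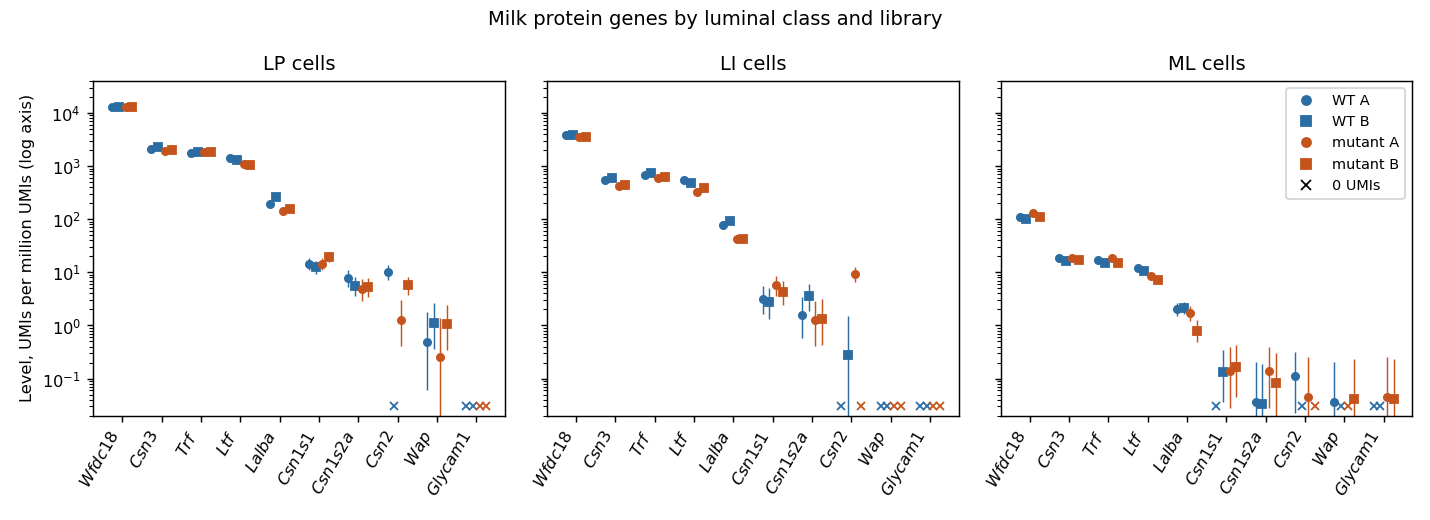
Level of each milk protein gene (UMIs per 1000000 UMIs, log axis) in LP, LI and ML cells, with 1 point per library and exact Poisson 95% intervals, and crosses for 0 UMIs. *Wfdc18* sits between 12743 and 12838 CPM in the LP cells of all 4 libraries, and the levels fall by about the same factor from LP to ML cells for the 5 abundant genes.

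Each of the abundant members was more than 100-fold higher in LP than in ML cells. In WT the ratio of LP to ML levels was 121 for *Wfdc18*, 126 for *Csn3*, 113 for *Trf*, 122 for *Ltf* and 111 for *Lalba*, and in the mutant it was 108, 110, 109, 138 and 123. For *Csn1s1* the ML level rested on 4 UMIs in WT, and the log2 ratio was 7.57 (6.17 to 9.47). A gene was called past the size rule where the levels differed by 1.5-fold or more, at least 50 UMIs were summed where the level was higher, and both libraries of one side lay beyond both of the other. By this rule 7 of the 7 members with enough UMIs were higher in LP cells in WT, against 23.1% of all genes with enough UMIs, and 6 of 6 in the mutant, against 25%. Of these, *Csn1s1* (114 UMIs in LP and 4 in ML cells of WT, 149 and 7 in the mutant) and *Csn1s2a* (56 and 2 in WT) met the minimum only through LP cells. The 5 abundant members met it in both classes. The classes were drawn from the same values, so this is a description and not a test of the classes. LP cells held 71.4% (*Trf*) to 78.1% (*Csn3*) of all UMIs of the 5 abundant members in WT and 74.1% to 80.2% in the mutant, while they were 17.1% and 22.6% of the cells.

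The UMIs of milk protein genes in ML cells stood in nearly the same proportions as in LP cells. *Wfdc18* gave 69.3% (68.3 to 70.3) of the members' UMIs in WT ML cells and 69.4% in WT LP cells. *Csn3* gave 11.5% and 12%, *Trf* 10.5% (9.85 to 11.2) and 9.83%, *Ltf* 7.29% and 7.38%, and *Lalba* 1.4% and 1.3%. In the mutant *Wfdc18* gave 73.0% (71.9 to 74.0) in ML and 71.7% in LP cells, and *Ltf* gave 4.87% (4.39 to 5.38) and 6.11%, intervals that did not meet the LP shares. A *Wfdc18* UMI was seen in 28.4% of WT ML cells, in 9.0% of them after each cell had been thinned to 1000 UMIs, and in 99.2% of thinned LP cells. Clusters 12 and 13 are the cells that should lack milk protein genes: the summed fibroblast markers (*Col1a1*, *Col1a2*, *Col3a1*, *Pdgfra*) of cluster 12 reached 4465 CPM in WT and the summed immune markers (*Ptprc*, *Cd74*, *Cd3e*, *Cd79a*, *Igkc*) of cluster 13 reached 15728 CPM. In these 126 WT cells *Wfdc18* was seen in 20.9% and 15.7% of thinned cells, at 1060 and 415 CPM, which is above the ML level of 106 CPM. A luminal keratin, *Krt18*, was also seen in 76.7% and 61.4% of these cells. *Csn3* (214 and 97.1 CPM) and *Trf* (116 and 89.7 CPM) were also higher in clusters 12 and 13 than in ML cells (17.5 and 16.0 CPM), but these clusters also held the luminal keratin, and the source of the members' UMIs in ML cells was not tested. *Ltf* was 35.6 and 7.47 CPM there, on 4 and 2 UMIs, against 11.1 CPM in ML cells. *Lalba* had no UMI there, which allows up to 32.9 and 13.8 CPM against 2.08 CPM in ML cells.

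LI cells lay between the other classes for every abundant member. Placed on a line from the ML level (0) to the LP level (1), WT LI cells stood at 0.29 for *Wfdc18*, 0.25 for *Csn3*, 0.38 for *Trf*, 0.37 for *Ltf* and 0.37 for *Lalba*, and the LP markers *Kit* and *Elf5* stood at 0.42 and 0.29. In the mutant the positions were 0.27, 0.21, 0.33, 0.32 and 0.27, with *Kit* at 0.36 and *Elf5* at 0.26. The median of LI cells in WT was 5620 UMIs, close to the sum of the LP and ML medians (5526 UMIs). In the mutant it was 6850 UMIs, above that sum (6137 UMIs). The LP median was a share of 0.37 (WT) and 0.34 (mutant) of these sums. Doublets were not removed here, and what part they have in the LI levels was not tested.

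**Figure D2:**
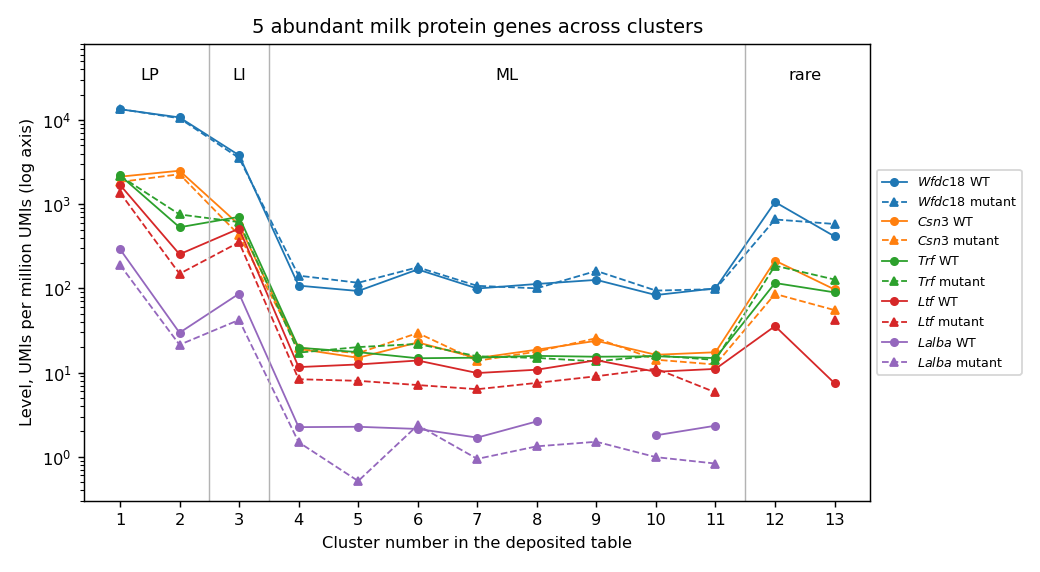
Levels of the 5 abundant milk protein genes (UMIs per 1000000 UMIs, log axis) in the 13 deposited clusters, with WT as circles and solid lines and the mutant as triangles and dashed lines, and no point where a gene had 0 UMIs. *Ltf*, *Lalba* and *Trf* drop from cluster 1 to cluster 2, while *Wfdc18* falls by less and *Csn3* rises slightly.

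The members differed in how evenly LP cells held them. Among WT LP cells thinned to 1000 UMIs (32 shallower WT and 173 shallower mutant LP cells were left out), *Wfdc18* had a median of 12 UMIs per cell, with 4 at the 10th percentile. *Csn3* was seen in 70.9% of these cells (83.4% before thinning), *Trf* in 55.5% (69.3%), *Ltf* in 33.5% (43.3%) and *Lalba* in 10.7% (14.4%). The variance over mean of *Ltf* was 12.3 in WT and 12.2 in the mutant, beside a median of 1.35 over the 46 genes of like mean in WT. For *Lalba* it was 5.35 beside 1.03, for *Trf* 7.32 beside 1.24 and for *Csn3* 3.50 beside 1.40 in WT, and since this measure moves with the mean it gives no order between members. The 1% of LP cells with the most UMIs of a gene held 4.87% of the *Wfdc18* UMIs, 17.4% of the *Ltf* UMIs and 30.3% of the *Lalba* UMIs in WT. UMIs of *Wfdc18*, *Csn3* and *Trf* were thus seen in most LP cells after thinning. *Ltf* and *Lalba* were seen in fewer. The share held by the 1% of cells with the most UMIs also moves with the mean, so it gives no order between members. A cell with no UMI may still hold the transcript, and before thinning *Ltf* was seen in 47.1% of WT cells of cluster 1.

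Over LP cells the correlation of thinned counts (log scale) was weak for each of the 15 pairs among *Wfdc18*, *Csn3*, *Trf*, *Ltf*, *Lalba* and *Csn1s1*, and it is given as a description. It was highest for *Trf* and *Lalba*, at 0.23 to 0.29 over the 4 libraries, and 0.13 to 0.18 for *Csn3* and *Trf*. *Wfdc18* ran slightly against *Trf* (-0.15 to -0.11) and against *Lalba* (-0.11 to -0.06) in all 4 libraries, and with *Ltf* (0.08 to 0.12).

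A few cells carried most of the beta-casein transcripts. *Csn2* had 115 UMIs in 17 cells of the whole study, and 96 of them (83.5%) were in 3 cells. These were an LP cell of WT A with 40 *Csn2* UMIs, an LI cell of mutant A with 34 and an LP cell of mutant B with 22. The same 3 cells held 8, 11 and 10 UMIs of *Csn1s1*, 12, 28 and 14 of *Lalba*, and 40, 31 and 13 of *Csn3*. Summed over these cells, of which 1 is an LI cell, *Lalba* stood at 3593 CPM against 189 CPM in the other LP cells, and *Csn1s1* at 1930 against 14.3 CPM. *Ltf* stood at 333 against 1225 CPM and *Wfdc18* at 8717 against 12799 CPM, and these sums weigh the deepest cell most. *Wfdc18* had 35 of the 1625 UMIs of the WT A cell, 65 of the 5870 UMIs of the mutant A cell and 31 of the 7533 UMIs of the mutant B cell, and *Wap* and *Glycam1* had no UMI in them. Of the 14 other cells, 12 had a single *Csn2* UMI, and 4 of these were ML cells. The limit of 5 or more *Csn2* UMIs was chosen after the values had been seen, and 3 cells from 3 libraries allow no comparison of genotypes.

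**Figure D3:**
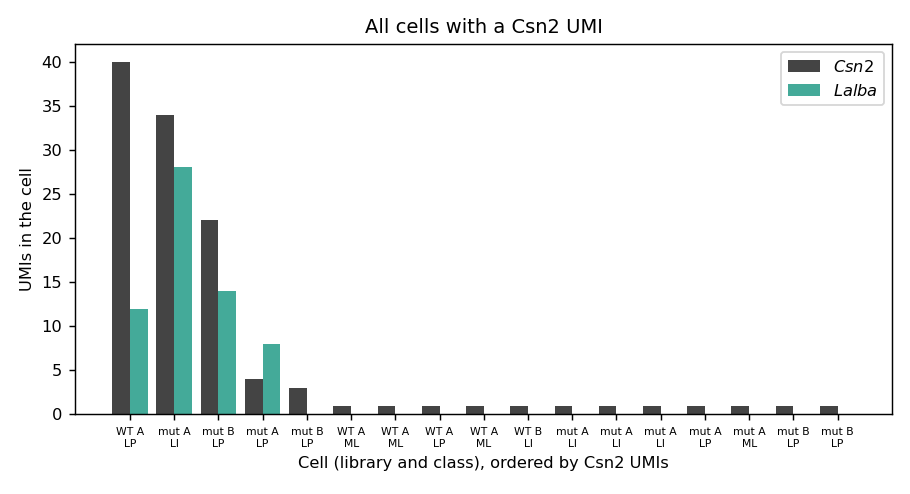
UMIs of *Csn2* and *Lalba* in each of the 17 cells with a *Csn2* UMI, with the library and class under each pair of bars. The 3 cells at the left hold 40, 34 and 22 *Csn2* UMIs and 12 to 28 *Lalba* UMIs, and the others hold 4 or fewer *Csn2* UMIs.

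The 2 LP clusters held some milk transcripts at different levels. Cluster 2 is marked by cell division: *Mki67*, a gene of cycling cells, was 271 CPM there and 14.7 CPM in cluster 1 in WT. *Lalba* stood at 249 and 330 CPM in cluster 1 of the WT libraries and at 27.7 and 31.8 CPM in cluster 2. In the mutant it stood at 176 and 202 CPM in cluster 1 and at 30.3 and 13.8 CPM in cluster 2. These are ratios of 9.84-fold in WT and 8.90-fold in the mutant, lower in cluster 2. *Ltf* was 6.67-fold lower in cluster 2 in WT (1697 and 254 CPM) and 9.21-fold lower in the mutant (1373 and 149 CPM), and *Trf* was 4.14-fold and 2.87-fold lower. *Wfdc18* differed little between the clusters, with log2 ratios of -0.32 in WT and -0.36 in the mutant. *Csn3* ran the other way, with log2 ratios of 0.24 (0.19 to 0.28) and 0.31 (0.26 to 0.36), higher in cluster 2 in all 4 libraries. *Csn1s1* was also higher in cluster 2, at 18.6 CPM against 11.8 CPM in WT and 25.4 against 14.7 CPM in the mutant, though the WT ratio rested on 37 UMIs in cluster 2.

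By the size rule *Lalba*, *Ltf* and *Trf* were lower in cluster 2 in both genotypes, beside 12.8% of all genes with enough UMIs in WT and 13.2% in the mutant. *Csn1s2a* was also lower in WT (7.65 CPM in cluster 1 and 3.02 CPM in cluster 2, on 50 and 6 UMIs, just at the minimum, so that leaving out the 1 cell with the most UMIs ends this call), while in the mutant it had 35 and 9 UMIs, too few for the rule. *Csn1s1* was past the rule as higher in cluster 2 in the mutant, on 98 and 51 UMIs, but 1 cell of mutant B held 12 of the 51, and without it the levels were 14.7 and 19.4 CPM on 98 and 39 UMIs, not past the rule. Genes higher in cluster 2 were 9.88% of all in WT and 9.59% in the mutant. These clusters were drawn from the same values and the difference is a description. The LP marker *Elf5* was 1.39-fold and *Aldh1a3* 2.32-fold lower in cluster 2 in WT, and the median cell of cluster 2 had 3490 UMIs against 1828 in cluster 1.

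**Figure D4:**
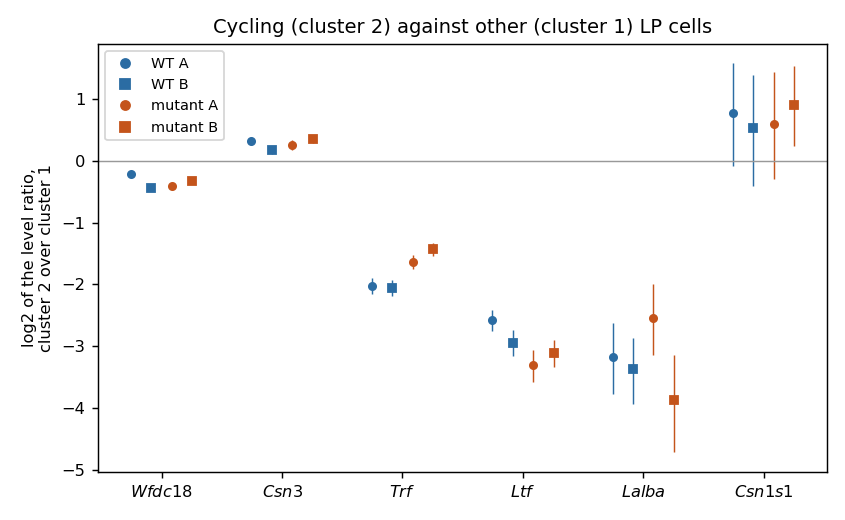
Log2 ratio of levels in cluster 2 over cluster 1 for 6 milk protein genes, with 1 point per library and exact 95% counting intervals. All 4 libraries lie below -2.5 for *Lalba* and *Ltf*, below -1.4 for *Trf*, and above 0 for *Csn3*.

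The study compared genotypes to learn what the loss of the activating function of this receptor does to luminal cells. In LP cells *Lalba* was the 1 member past the size rule between genotypes. Its level was 231 CPM in WT and 151 CPM in the mutant, a log2 ratio of -0.61 (-0.72 to -0.51), and both mutant libraries (142 and 159 CPM) lay below both WT libraries (194 and 265 CPM). A *Lalba* UMI was seen in 10.7% of thinned WT LP cells and 7.39% of thinned mutant LP cells. The fold of 1.53 is just inside the limit of 1.5, and the WT libraries differed from each other by more than mutant B differed from WT A. Without WT B the log2 ratio was -0.36, and without the lowest 10% of each library's cells by UMIs it was -0.33, both short of the limit, and without mutant A (-0.54) it was also short. Of all genes with enough UMIs in LP cells 0.606% were lower and 2.23% higher in the mutant by the same rule.

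The other abundant members differed less. *Ltf* had a log2 ratio of -0.32 (-0.36 to -0.28) in LP cells, with all 4 pairs of libraries between -0.39 and -0.25, and *Csn3* had -0.19 (-0.22 to -0.16). *Wfdc18* was nearly equal, at 0.00 (-0.01 to 0.01), and *Trf* was at 0.02 (-0.01 to 0.05). *Csn1s1* had a ratio of 0.36, with an interval that reached 0, and after thinning the ratio was -0.17. The median over the 7 members with enough UMIs was -0.19, and over all genes it was 0.02.

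Within cluster 1 *Lalba* was again past the rule, with a log2 ratio of -0.62, in a comparison where 0.752% of all genes were lower. Cluster 1 held 1912 of the 1971 *Lalba* UMIs of WT LP cells, so this largely repeats the LP result. WT A stood at 249 CPM there and the mutant at 190 CPM, so without WT B the fold was short of the limit. Within cluster 2 the member past the rule was *Ltf*, at 295 and 212 CPM in the WT libraries and 142 and 155 CPM in the mutant libraries (log2 ratio -0.77), where 1.2% of all genes were lower. This rested on 1 cell of WT B with 70 of that library's 207 *Ltf* UMIs: without it WT B stood at 141 CPM, below mutant B and level with mutant A, and the log2 ratio was -0.56 and not past the rule. A *Ltf* UMI was seen in 22.1% of WT and 24.8% of mutant cells of cluster 2, and in 11.9% and 10.4% of thinned cells. *Trf* in cluster 2 was 524 and 540 CPM in WT and 691 and 811 CPM in the mutant, a log2 ratio of 0.51 that stayed below the limit.

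In LI cells *Lalba* differed by more, at 78.7 and 94.6 CPM in WT and 42.7 and 41.8 CPM in the mutant. The log2 ratio was -1.03 (-1.23 to -0.84), or 2.05-fold lower, a UMI was seen in 5.43% of thinned WT and 2.94% of thinned mutant LI cells (16.7% and 10.6% before thinning), and it was the 1 member past the rule, beside 1.03% of all genes lower and 2.83% higher in the mutant. *Ltf* (537 and 489 CPM in WT, 322 and 386 CPM in the mutant) had a ratio of -0.54, *Csn3* -0.41, *Trf* -0.21 and *Wfdc18* -0.11, and all 4 library pairs were below 0 for each. The summed LP markers in LI cells were 1999 CPM in WT and 1674 CPM in the mutant, with *Lcn2* at 1309 and 1079 CPM, *Cd14* at 338 and 274 CPM, *Aldh1a3* at 153 and 124 CPM, *Elf5* at 105 and 99.1 CPM and *Kit* at 93.9 and 97.1 CPM. The summed ML markers stood at 2914 and 2548 CPM. Their part in the *Lalba* difference was not tested.

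In ML cells *Lalba* was past the rule as well, on 118 UMIs in WT and 56 in the mutant (log2 ratio -0.76, -1.25 to -0.29), beside 1.58% of all genes lower and 2.88% higher. These UMIs were spread over 117 WT and 50 mutant ML cells, and their source was not tested. Without mutant B the ratio was -0.30 and short of the limit, without mutant A it was -1.38, and after thinning -0.43. *Ltf* in ML cells was 11.1 and 7.91 CPM, a log2 ratio of -0.50. Over the 10 clusters where *Ltf* had 50 or more UMIs in the genotype with more, its level was lower in the mutant in 9, and cluster 10 was the exception (0.12). Clusters 5, 6 and 11 entered only through WT, with 55, 78 and 104 UMIs against 31, 39 and 14 in the mutant. The clusters also share the same libraries, so these are not 10 separate comparisons. The count of clusters lower in the mutant was 7 of 10 for *Csn3*, 5 of 10 for *Trf*, 4 of 12 for *Wfdc18* and 3 of 3 for *Lalba*. For *Lalba* cluster 2 entered only through WT, on 59 UMIs against 43 in the mutant. These counts are a description.

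**Figure D5:**
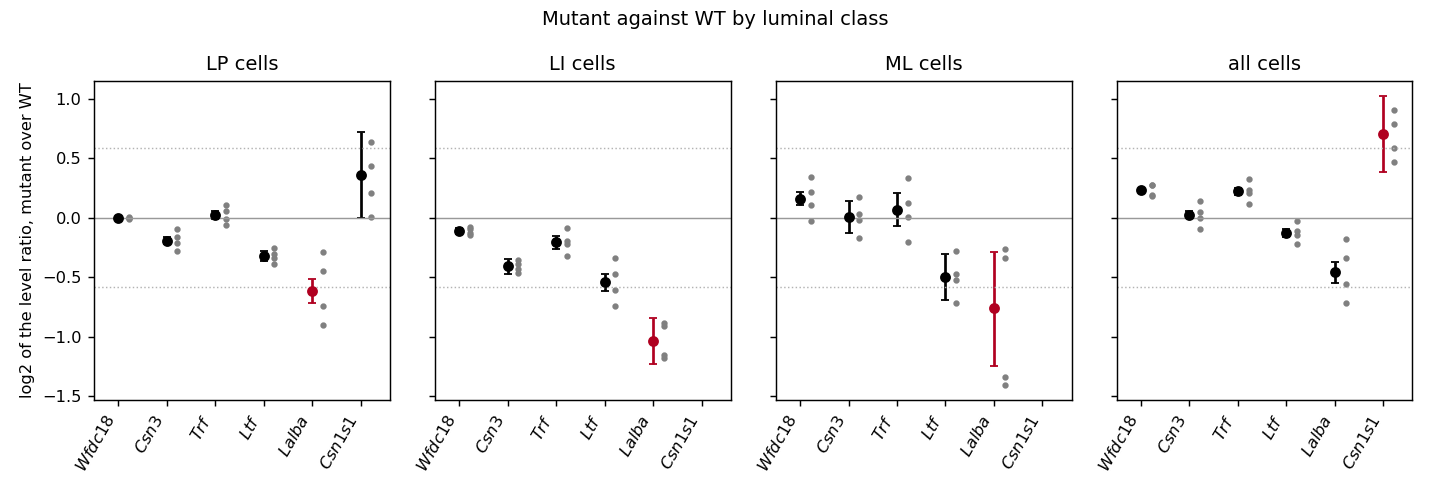
Log2 ratio of levels, mutant over WT, in LP, LI, ML and all cells for *Wfdc18*, *Csn3*, *Trf*, *Ltf*, *Lalba* and *Csn1s1*, where they had enough UMIs. Bars are exact 95% counting intervals, grey points the 4 pairs of libraries and dotted lines a fold of 1.5. *Csn1s2a* and *Csn2*, which had enough UMIs in some of these comparisons, are not drawn. Red marks genes past the size rule: *Lalba* in LP, LI and ML cells (-0.61, -1.03 and -0.76) and *Csn1s1* in all cells (0.71).

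Over all cells the ratios differed from those in LP cells. LP cells were 22.6% of cells and gave 13.9% of UMIs in the mutant pool, against 17.1% and 11.7% in the WT pool, and the part of this in the ratios was not tested. *Wfdc18* (log2 ratio 0.23) and *Trf* (0.22) were higher in the mutant over all cells while level in LP cells, and *Lalba* was at -0.46. *Csn1s1* was past the rule in this comparison, at 2.0 and 1.84 CPM in WT and 2.77 and 3.46 CPM in the mutant (log2 ratio 0.71), where 3.24% of all genes were higher and 1.18% lower. Its counts were 140 and 195 UMIs, and without mutant B the ratio was 0.53, and after thinning 0.40, both short of the limit.

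Of 26 other genes of milk and its secretion, 16 had enough UMIs in LP cells and none was past the rule between genotypes there. The highest of them in LP cells were *Lcn2*, an iron-carrier binding protein of innate defense (3698 CPM in WT, 3663 in the mutant), *Mfge8*, a protein of the milk fat globule (2193 and 2275 CPM), and *Cd14*, the co-receptor for bacterial lipopolysaccharide (945 and 876 CPM). In WT 11 of the 16 with enough UMIs were higher in LP and 3 in ML cells, and in the mutant 11 and 5 of 17. Of all genes with enough UMIs 23.1% were higher in LP and 18.3% in ML cells in WT, and 25% and 17.6% in the mutant. In LI cells 15 of the 26 had enough UMIs, and 1.03% of all genes were lower and 2.83% higher in the mutant. Past the rule there was *Btn1a1*, butyrophilin of the milk fat globule, lower in the mutant (41.8 CPM in WT, 27.3 in the mutant). Higher in the mutant were *Wfdc3* (67.3 and 105 CPM) and *Slpi*, a protease inhibitor (5.81 and 13.5 CPM). *Slpi* met the minimum in LI cells only through the mutant. In ML cells *Wfdc3* (94.9 and 162 CPM), *Slpi* (6.83 and 15.6), *Muc15* (1.14 and 1.77) and *Saa1* (0.546 and 1.40) were higher in the mutant and *Muc1* was lower (5.58 and 3.50). There 16 had enough UMIs, and 2.88% of all genes were higher and 1.58% lower. *Muc15* (65 UMIs in WT, 81 in the mutant) and *Saa1* (31 and 64 UMIs) were near the minimum, and *Saa1* met it only through the mutant. Over all cells *Wfdc3*, *Slpi*, *Saa1* and *Pigr* (0.588 and 0.897 CPM) were higher, of 21 with enough UMIs, beside 3.24% of all genes. *Pigr* was near the minimum there and met it only through the mutant.

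Of 18 genes of lactogenic signaling, 17 had enough UMIs over all cells, 15 within LI and 16 within ML. *Cish*, a feedback inhibitor that STAT5 induces, was past the rule over all cells (26.3 and 27.3 CPM in WT, 42.4 and 40.8 in the mutant), in LI cells (31.1 and 50.4 CPM) and in ML cells (26.6 and 43.4 CPM), while in LP cells it stood at 24.2 and 24.9 CPM. *Cish* was the 1 listed gene past the rule in each of these comparisons. Beside it, the share of all genes higher in the mutant was 3.24% (all cells), 2.83% (LI) and 2.88% (ML). Whether 1 gene in a list of this size exceeds these shares was not tested. No gene of this list was past the rule in LP cells, where 16 had enough UMIs. *Prlr*, the prolactin receptor, stood at 2125 CPM in WT ML cells against 262 CPM in LP cells. The paper defined the ML class by *Prlr* expression, so the direction of this difference was set by how the classes were named. *Cebpb* (1066 CPM), *Socs3* (519) and *Nfib* (414) were the highest of the list in WT LP cells.

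Over clusters 1 to 11 of both genotypes (22 values, sharing libraries and depth) the genes outside the 10 members whose level ran most like that of *Wfdc18*, among 8849 genes, were *Kit*, *Lcn2* and *Barx2*, with Pearson correlations of 0.997, 0.996 and 0.996. For *Csn3* they included *Emid1* (0.994) and *Lcn2* (0.992), and for *Trf* the overlapping *Gm20425* (0.999), *Igfbp5* (0.995) and *Wnt5b* (0.995). For *Ltf* they were *Cck* (0.987), *C2cd4b* (0.986) and *Lgals7* (0.984), and for *Lalba* *Cck* (0.982), *Clic6* (0.972) and *C2cd4b* (0.970). Members left out of these lists ran as close in part: *Csn3* and *Wfdc18* correlated at 0.997, *Ltf* and *Trf* at 0.982, and *Ltf* and *Lalba* at 0.978. *Cck* and *C2cd4b* stood near both *Ltf* and *Lalba*, and *Lcn2* near both *Wfdc18* and *Csn3*. *Kit* and *Lcn2* are LP markers named above. The 22 values span the LP, LI and ML classes, so these correlations largely restate the difference between the classes.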

How the data were processed

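Per the deposited table, the authors gave 1 signal value per gene and cell, scaled by 1 factor for each cell, with the library, genotype, cluster and class of each cell. The submitters' processing notes name CASAVA 1.8, bcl2fastq 2.20, GSNAP 2013-10-10 and GRCm38. Values were divided by the smallest nonzero value of their cell, which gave whole numbers within 0.02 for 100% of values, summed as UMIs and expressed for every 1000000 UMIs of those cells (CPM). No cell was left out. No doublet caller was run. Levels have exact Poisson, log2 ratios exact conditional binomial and shares exact Clopper-Pearson intervals at 95%. A count of 0 is given with the upper end of its interval. UMIs per library were 30019745 to 38009351.

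Every gene was put through the size rule, in which a gene needed a fold of 1.5, 50 UMIs and libraries that did not overlap. Each genotype was 1 pool, so no p-value was taken. For comparisons across depths each cell was thinned to 1000 UMIs with a seed of 1, and 45 WT and 252 mutant cells fell short of that. The members, the lists and the alternatives were chosen with earlier results of these data known. Named beside the members were listed genes past the rule in a class, up to 3 listed genes with the highest level in LP or ML cells, and 3 genes of most similar profile (mean of 10 CPM or more) for each member with 500 UMIs in WT. Of these, 1 gene that this rule names is not reported here. Alternatives were leaving out a library, TMM factors, other totals, means over cells, thinning, leaving out cells, and other limits. Python 3.11.15, NumPy 2.4.6, SciPy 1.17.1, pandas 2.3.3 and matplotlib 3.10.9 were used.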

Additional observations from a re-analysis of the deposited data

Results flagged for a closer look

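*Trf* moved in opposite directions in LI cells and in cluster 2 of the LP cells. All 4 pairs of libraries were lower in the mutant in LI cells (log2 ratio -0.21, pairs from -0.32 to -0.08), and all 4 were higher in cluster 2 (0.51, pairs from 0.35 to 0.63). The difference between the 2 ratios was not tested, neither ratio reached the limit of 1.5-fold, and *Gm20425*, which shares bases with *Trf*, leaves the count of this gene uncertain.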

How the results depend on the processing

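No paired analysis was possible because the cells carry a library identifier and no replicate number. Of the log2 ratios of single members between genotypes under the alternatives, 199 stayed within the counting interval of the reported value, 88 lay outside it and 0 called ones changed sign. The counts of members higher in LP than in ML cells (7 in WT, 6 in the mutant) rest in part on scarce members. *Csn1s1* had 114 UMIs in WT and 149 in mutant LP cells, and *Csn1s2a* had 56 in WT. All of these are below a minimum of 200 UMIs. *Csn1s2a* was seen in 1.41% of WT LP cells before thinning and in 0.73% after it. The counts therefore depend on the minimum and on thinning. The lowest LP count of the 5 abundant members was 1312 UMIs (*Lalba*, mutant). Between genotypes, leaving out 1 library gave 0 to 2 members higher and 0 to 1 lower over all cells, 0 to 1 lower in LP cells, 1 to 2 lower in LI cells and 0 to 2 lower in ML cells. Over all cells the count of members higher was 0 after thinning, without the top 1% of cells, at a minimum of 200 UMIs and at a fold of 2. The count lower over all cells was 1 without the top 1% of cells and at the lowest fold limit tried. In LP cells 0 were lower without the lowest 10% of cells and at a fold of 2, and at the lowest fold limit there were 2 lower and 1 higher. In LI cells 2 were lower after thinning, without the top 1% of cells and at a minimum of 10 UMIs, which also gave 1 higher, and 3 were lower at the lowest fold limit. In ML cells 0 were lower at a minimum of 200 UMIs and at a fold of 2, and 2 at the lowest fold limit. The log2 ratio of *Lalba* lay between -0.86 and -0.33 in LP cells, -1.46 and -0.90 in LI cells and -1.38 and -0.30 in ML cells. That of *Ltf* lay between -0.36 and -0.18, -0.67 and -0.41, and -0.63 and -0.37. In cluster 2, leaving out the cell with the most *Ltf* UMIs, also chosen after seeing the data, gave -0.56 in place of -0.77. Leaving out the 3 cells with 5 or more *Csn2* UMIs, a choice made after seeing the data, gave *Csn1s1* 0.63 over all cells. The ratio of *Csn1s1* in LP cells, 0.36 and not past the rule, lay between -0.17 and 0.54. The cause of these shifts was not tested. With 1 pool of mice per genotype, the spread between mice is unknown.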
